A study of Mus musculus with 6 samples.

Results

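The genes described are 10 immediate early genes of mouse: Fos, Fosb, Fosl2, Jun, Junb, Jund, Egr1, Atf3, Ier2 and Dusp1. They were chosen by name, with earlier results of these data known. All 10 are among the 15648 genes of the authors' deposited table. RNA came from the intermolar eminence, the raised dorsal part of the tongue, of C57BL/6 mice at E17.5. There were 3 libraries labelled WT and 3 labelled Fst-KO, the latter from mutants of Fst, which encodes the secreted activin and BMP antagonist follistatin. The mutant allele, its tissue range and any pooling of animals are not stated in the labels. The table holds 1 mean per group and no value per library, so no SD stands beside a mean, the depth is unknown and the libraries within a group cannot be compared. The p-values set each difference between groups against the variation of these 6 libraries within their groups. With nothing in the labels on separate animals, that variation may be technical.

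Immediate early genes are transcribed within minutes of a stimulus, without new protein synthesis, from factors that already sit on their promoters. Growth factors, stretch, wounding and cell stress reach them through MAP kinases, serum response factor and CREB. The Fos and Jun proteins pair through leucine zippers into AP-1, a dimeric transcription factor that acts on genes of proliferation, matrix turnover and keratinocyte differentiation. Their RNAs are short-lived, and dissection itself is known to induce them in many tissues. No record of dissection time or handling stands in the labels, so whether these values reflect handling was not tested, and the genes are called immediate early genes only.

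The promoters of 4 members are shown because they include the 2 members with the highest ratios (Fosb and Fos), the lowest (Atf3), and the only one of the 8 listed promoters with a whole TGACGTCA (Dusp1). Each stretch is the 200 bases before the start used for that RefSeq promoter (GRCm38.p6). It is written 5′ to 3′ on the gene's strand and ends at position -1. Capitals mark TGACG on either strand, the core of the cyclic AMP response element (CRE), which CREB and ATF proteins bind. The Fosb stretch is chr7:19310046-19310245 and that of Dusp1 chr17:26508473-26508672, both on the minus strand. As written, the Fosb stretch begins outside the gene span, which reaches 19310118, and ends inside it. Its last part is therefore not upstream of the gene. The Fos stretch is chr12:85473690-85473889 on the plus strand, and that of Atf3 is chr1:191183334-191183533 on the minus strand.
Fosb: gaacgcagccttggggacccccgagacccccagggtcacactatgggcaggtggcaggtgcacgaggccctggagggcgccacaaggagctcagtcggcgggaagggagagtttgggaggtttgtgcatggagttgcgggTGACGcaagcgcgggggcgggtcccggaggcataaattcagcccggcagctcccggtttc
Fos: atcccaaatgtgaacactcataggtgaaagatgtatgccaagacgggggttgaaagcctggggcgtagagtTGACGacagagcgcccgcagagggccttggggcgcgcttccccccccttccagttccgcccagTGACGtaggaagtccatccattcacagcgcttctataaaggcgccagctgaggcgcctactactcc
Dusp1: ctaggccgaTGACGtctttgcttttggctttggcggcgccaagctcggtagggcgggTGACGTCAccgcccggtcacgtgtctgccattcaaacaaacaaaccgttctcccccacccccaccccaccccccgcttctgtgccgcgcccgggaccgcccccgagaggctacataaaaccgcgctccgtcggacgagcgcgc
Atf3: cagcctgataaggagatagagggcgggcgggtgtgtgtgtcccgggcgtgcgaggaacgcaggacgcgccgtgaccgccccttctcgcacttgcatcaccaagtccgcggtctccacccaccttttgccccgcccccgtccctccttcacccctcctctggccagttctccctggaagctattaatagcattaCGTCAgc

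Over the 250 bases before the start, TGACG on either strand stood in 5 of the 8 member promoters listed (Fos, Fosb, Junb, Dusp1 and Atf3) and in 17.8% of all 32851 promoter windows of that length. In Fos it began at positions -129 and -66, the latter upstream of a TATAAA at -33. In Fosb it began at -60, which lies inside the gene span. The full palindrome TGACGTCA, which holds TGACG on both strands, stood in 1 member promoter, Dusp1, at -143, and in 1.55% of all windows. Neither TGACTCA, an AP-1 site, nor the CArG box of serum response factor matched in any of the 8, against 4.46% and 1.47% of all windows, both strands read. Matches and their absence describe these letters in these 250 bases only, and sites farther upstream were not searched. Of the 5 members with TGACG, 3 (Fosb, Fos and Dusp1) had a ratio above the all-gene median and 2 (Junb and Atf3) one below it. The 3 without it, Jun, Fosl2 and Jund, all lay below. Egr1 and Ier2, both above the median, were not searched. Junb and Jun lay close to the median, at 0.991 and 0.972 of it. A link between the motif and the ratio was not tested, and the same split was not made over all genes.

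Fst was higher in the libraries that its label calls mutant, with a mean of 69.7 against 33.2 in WT and an FDR of 0.0158 by the authors' gene-specific analysis (GSA) in the authors' deposited table. Its locus is chromosome 13 (114452262 to 114458989, minus strand), and its gene-level value cannot show whether a deleted part is missing. The mutant group is therefore called the libraries labelled Fst-KO, and each direction below is that of the labels. The median ratio of all genes, libraries labelled Fst-KO over WT, was 1.14 (0.18 on the log2 scale), so ratios are also given relative to it. The labels call the tissue tongue epithelium, and markers of muscle and connective tissue were also measured in it. In the libraries labelled Fst-KO and in WT, the means of 12 skeletal muscle markers summed to 10039 and 13995, those of 10 mesenchyme markers to 5888 and 4377, and those of 10 basal epithelial markers to 6094 and 4339.

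None of the 10 immediate early genes passed the authors' FDR of 0.05, a threshold that 0.0959% of all genes passed (15 of 15648). A nominal (unadjusted) p under 0.05 was reached by 1 member, Fosb, or 10% of them, where 15.6% of all genes reached it, 13.4% on the higher and 2.17% on the lower side. Looser and stricter thresholds gave 0 members each: an FDR under 0.1 was reached by 0.179% of all genes, and a nominal p under 0.01 by 3.49%, with 2.7% higher and 0.786% lower. Their FDRs ran from 0.320 to 0.815 by GSA in the authors' deposited table. The median ratio of the members was 1.15 beside 1.14 for all genes. A ratio above 1 was seen for 8 members and for 81.0% of all genes. Set against the all-gene median the split was even, with 5 members above (Fosb, Fos, Egr1, Dusp1 and Ier2) and 5 below (Junb, Jun, Fosl2, Jund and Atf3). The ratios of single members ranged from 0.897 for Atf3 to 1.997 for Fosb in the authors' deposited table. All 10 had a mean above the all-gene median, 16.1. Whether the values are corrected for gene length is not given, so levels are compared between groups and not between genes.

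**Figure D1:**
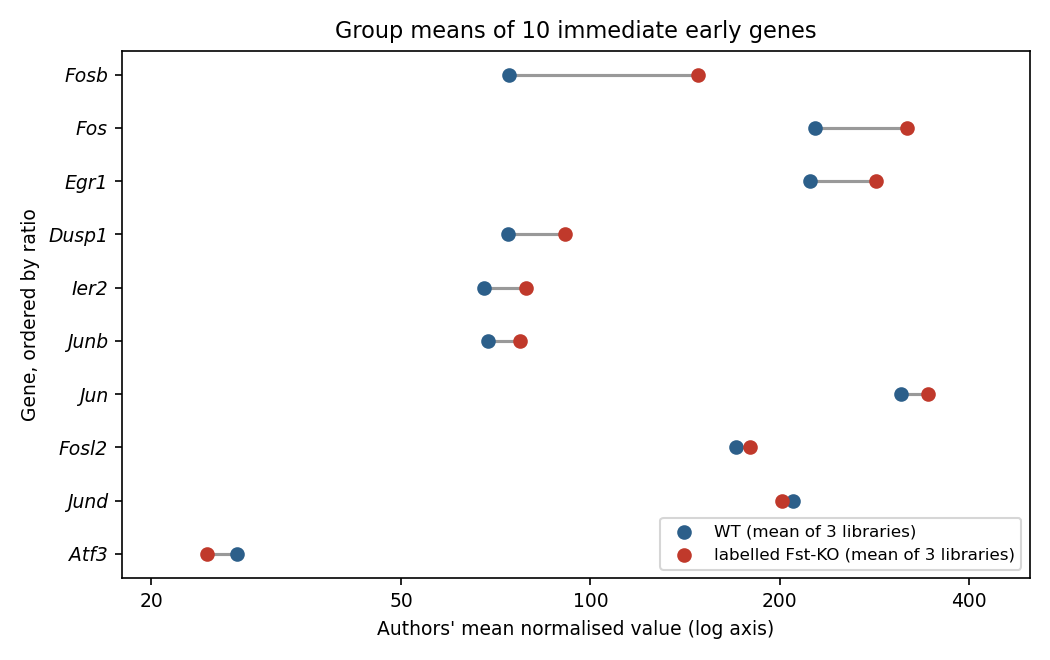
The authors' mean normalised value (log axis) of each immediate early gene in WT (blue) and in the libraries labelled Fst-KO (red), each point a mean of 3 libraries with no error in the table. The distance between points is widest for Fosb, from 74.2 to 148, and the order of colours is reversed for Jund and Atf3.

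The Fos family held the member with the highest ratio and showed the widest range of ratios of the 3 gene groups. Fos, Fosb and Fosl2 encode basic leucine zipper proteins that bind DNA as AP-1 only when paired, mostly with a Jun protein. Fosb is on chromosome 7 (19302696 to 19310118, minus strand), and its promoter is the first shown above. In the authors' deposited table its mean was 148 in the libraries labelled Fst-KO and 74.2 in WT, a ratio of 1.997. Fosb had p = 0.0492 and FDR = 0.320 by GSA in the authors' deposited table, so the difference did not pass the threshold. Set against the all-gene median its ratio was 1.76, and 98.7% of all genes had a lower ratio than Fosb.

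Fos, the prototype of the family, is on chromosome 12 (85473890 to 85477274, plus strand). Its mean was 319 in the libraries labelled Fst-KO and 227 in WT, or 1.40-fold, in the authors' deposited table. Fos had p = 0.226 and FDR = 0.434 by GSA in the authors' deposited table, although 91.0% of all genes had a lower ratio. Fosl2 encodes Fra-2, a Fos-related protein without the strong transactivation domain of Fos. It is on chromosome 5 (32136472 to 32157840, plus strand). In the authors' deposited table Fosl2 had means of 179 and 170, a 1.05-fold ratio and p = 0.572 by GSA. Its ratio was thus above 1 but below the all-gene median, at 0.926 of it. Fosl1, the remaining family member, is not in the table.

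All 3 Jun genes had ratios below the all-gene median, although those of Jun and Junb were above 1. Jun proteins pair with Fos proteins or with each other, and all 3 genes have a single exon, so no exon junction interrupts a read. Jun, on chromosome 4 (95049036 to 95052222, minus strand), had means of 344 in the libraries labelled Fst-KO and 311 in WT in the authors' deposited table. That is a ratio of 1.10 for Jun, with p = 0.484 and FDR = 0.642 by GSA in the authors' deposited table. Junb, which can restrain Jun-driven proliferation, is on chromosome 8 (84976909 to 84978748, minus strand). Its means were 77.2 and 68.6, a 1.13-fold ratio with p = 0.417, by GSA in the authors' deposited table. Jund, the member of the family that is least induced and most constant in resting cells, is on chromosome 8 (70697739 to 70700616, plus strand). In the authors' deposited table its means were 201 and 210, a ratio of 0.960 with p = 0.715 by GSA.

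Summed over each AP-1 family, the ratio was larger for Fos than for Jun genes. The means of the 3 Fos genes summed to 646 in the libraries labelled Fst-KO and 472 in WT, a ratio of 1.37 for the sums of the authors' means. The same sums of the 3 Jun genes were 623 and 590, a ratio of 1.06. These sums have no test, and they give abundant genes more weight.

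The other 4 members act outside the Fos and Jun families. Egr1, on chromosome 18, encodes a zinc finger transcription factor induced through serum response factor and its Ets partners. It had means of 284 in the libraries labelled Fst-KO and 223 in WT in the authors' deposited table. The ratio of Egr1 was 1.27, with p = 0.231 and FDR = 0.438 by GSA in the authors' deposited table. Dusp1 encodes a nuclear phosphatase that switches off p38, JNK and ERK MAP kinases and so ends the response that induced it. It is on chromosome 17 (26505591 to 26508472, minus strand). Its means were 91.2 and 74.0, a ratio of 1.23 with p = 0.242, by GSA in the authors' deposited table. Both genes lay above the all-gene median, at 1.12 of it for Egr1 and 1.09 for Dusp1.

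Ier2, a single-exon gene for a small nuclear protein, is on chromosome 8 (84661331 to 84662852, minus strand). In the authors' deposited table Ier2 had means of 79.0 and 67.7, a ratio of 1.17 and p = 0.2996 by GSA. Atf3, a stress-induced basic leucine zipper protein that represses many of its targets as a homodimer, is on chromosome 1 (191170296 to 191183333, minus strand). It was on the opposite side, with a mean of 24.5 in the libraries labelled Fst-KO and 27.4 in WT, in the authors' deposited table. The ratio of Atf3 was 0.897, with p = 0.434 and FDR = 0.601 by GSA in the authors' deposited table. Set against the all-gene median Atf3 stood at 0.789, the lowest of the 10. Atf3 and Jund were the 2 members with a ratio below 1.

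For 4 members, annotated exons of a gene on the other strand overlap their own in GENCODE M21: Junos for Jun, Prdx2 for Junb, Gm11175 for Jund and Ergic1 for Dusp1. Whether reads were counted by strand is unknown here, so reads in the shared stretches cannot be told apart. Of these genes 2 are in the table, and neither had a nominal p under 0.05. Prdx2 had a ratio of 1.22 and Ergic1 of 1.01 in the authors' deposited table.

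The p-values of the members were set beside those of abundant genes with a like ratio. For each member, the genes whose mean reached the all-gene median and whose log2 ratio was within 0.05 of its own were taken as a reference, a description chosen after the values were seen. For Fos there were 225 such genes with a median p of 0.0247, and 96.0% of them had a lower p than Fos. For Egr1 the median p of 794 like genes was 0.0467 and 96.5% lay lower, and for Dusp1 96.4% of 1213 lay lower. The share was 95.0% for Junb, 93.8% for Ier2 and 93.2% for Jun. In 6 of the 10 members, then, the p exceeded that of over 90% of these genes. By construction only a small part of genes can stand that high among their like genes. The share over all abundant genes was not counted. That count was 6 with the 10% most abundant genes as the reference, 3 with a window of 0.1 and 1 with all genes of the table, low ones included. The other 4 members were Atf3 (71.7%), Fosl2 (59.9%), Fosb (50%) and Jund (44.5%), and for Fosb only 6 genes had a like ratio. Values per library, which would show the spread behind these p-values, are not in the table.

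**Figure D2:**
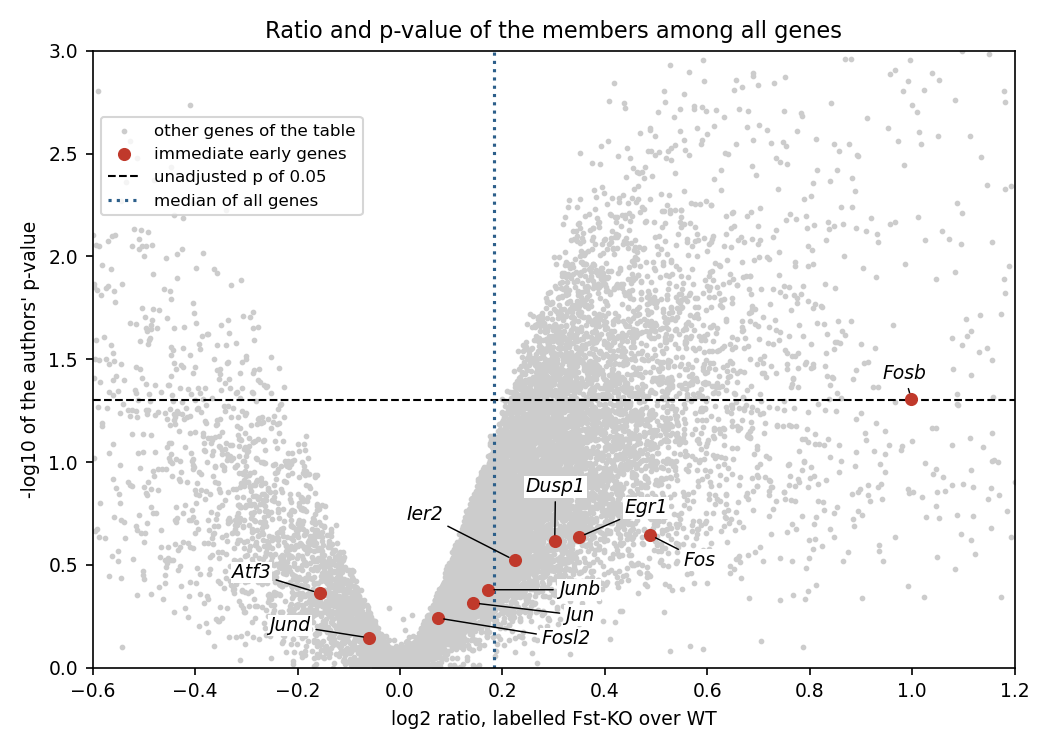
The log2 ratio of each gene, libraries labelled Fst-KO over WT, against -log10 of the authors' p-value, with immediate early genes in red and other genes in grey. The dashed line is a nominal p of 0.05, the dotted line the all-gene median, and 410 of 15648 genes lie outside the axes. Fosb sits at the dashed line, and the other 9 members lie below it, with p-values from 0.226 for Fos to 0.715 for Jund.

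A wider list of immediate early genes showed no FDR call either and lay slightly lower. Of 45 listed, 42 are in the table, their median ratio was 1.08, and 34 of them lay below the all-gene median. At a nominal p under 0.05, 4 were higher, 0 lower and 38 neither. That p was reached by 9.52% of the list and 15.6% of all genes, 13.4% higher and 2.17% lower. The higher ones were Phlda1, a pleckstrin homology domain protein, at 1.66, the NF-kappaB regulators Nfkbiz at 1.43 and Nfkbia at 1.38, and Zfp36l1, which promotes decay of AU-rich mRNAs, at 1.201 in the authors' deposited table. Phlda1 had the lowest p of the list, 0.00144, with an FDR of 0.201 by GSA in the authors' deposited table. Genes often induced with the members had ratios on both sides of 1. Nr4a1, an orphan nuclear receptor, had means of 38.6 in the libraries labelled Fst-KO and 45.1 in WT, or 0.855 of WT, in the authors' deposited table. Btg2 and Zfp36, also induced with them, stood at 1.13 and 1.12 in the authors' deposited table. The Egr1 relatives Egr2 and Egr3 had 1.18 and 0.948 in the authors' deposited table. Their means were low, at 3.61 in the libraries labelled Fst-KO and 3.05 in WT for Egr2, and 1.60 and 1.68 for Egr3. None of these 5 had a nominal p under 0.05, and they were chosen after their values were seen.

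Of 29 genes of the wider list whose mean reached the all-gene median, 9 had a p above that of over 90% of genes with a like ratio. As for the members, the share over all abundant genes was not counted. Cyr61, a matricellular protein gene induced by serum and stretch, was the highest at 98.1%, and Btg2 stood at 97.1%. The median over the 29 was 62.0%, beside 93.5% over the 10 members, with no test of either. Both genes were named after their values were seen.

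Genes that act upstream of the members had a median just below that of all genes. Of 31 listed kinases and transcription factors, 30 are in the table with a median ratio of 1.10. A nominal p under 0.05 was reached by 13.3% of them, beside 15.6% of all genes (13.4% higher and 2.17% lower). At that p 4 stood higher and 0 lower, and none passed the FDR. These were the p38 kinase gene Mapk11 at 1.36, the CREB coactivator Crtc2 at 1.24, the serum response factor coactivator Mkl1 at 1.21 and the Ets factor Elk4 at 1.18 in the authors' deposited table. Mapk11 was low, with means of 4.43 in the libraries labelled Fst-KO and 3.26 in WT. Basic leucine zipper partners of AP-1 had a similar median of 1.10 over 21 of 24 genes. At that p were 23.8% of them, 5 higher and 0 lower. Among them were Creb5 at 1.26, Jdp2, which dimerises with Jun proteins and represses AP-1, at 1.22, and Atf5 at 1.19 in the authors' deposited table.

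Negative feedback on MAP kinases, the class to which Dusp1 belongs, had the lowest median of the 7 related lists. It was 1.05 over 16 of 17 genes, with 2 higher and 1 lower at a nominal p under 0.05 and none past the FDR. That p was reached by 18.75% of the list and 15.6% of all genes, 13.4% higher and 2.17% lower. Dusp10, a phosphatase of p38 and JNK, had means of 17.0 and 21.0, or 0.808 of WT and so opposite to Dusp1, in the authors' deposited table. Spred3 and Spred2, inhibitors of Ras to ERK signalling, stood at 1.24 and 1.19 in the authors' deposited table.

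Genes downstream lay with the all-gene median. Among 22 known targets of AP-1 or EGR factors, 14 are in the table with a median ratio of 1.14. The inducible proteases Mmp3, Mmp9, Mmp10 and Mmp13 are among the 8 that are not. With a nominal p under 0.05, 4 stood higher and 0 lower, and none passed the FDR. That p was reached by 28.6% of the 14 and 15.6% of all genes, 13.4% higher and 2.17% lower. Timp1, an inhibitor of metalloproteinases, was low at 2.03 and 1.14 but 1.78-fold in ratio in the authors' deposited table. Plaur, the urokinase receptor, stood at 1.51, Tgfb1 at 1.26 and the hyaluronan receptor Cd44 at 1.199 in the authors' deposited table. Plaur was low too, with means of 2.06 in the libraries labelled Fst-KO and 1.37 in WT.

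**Figure D3:**
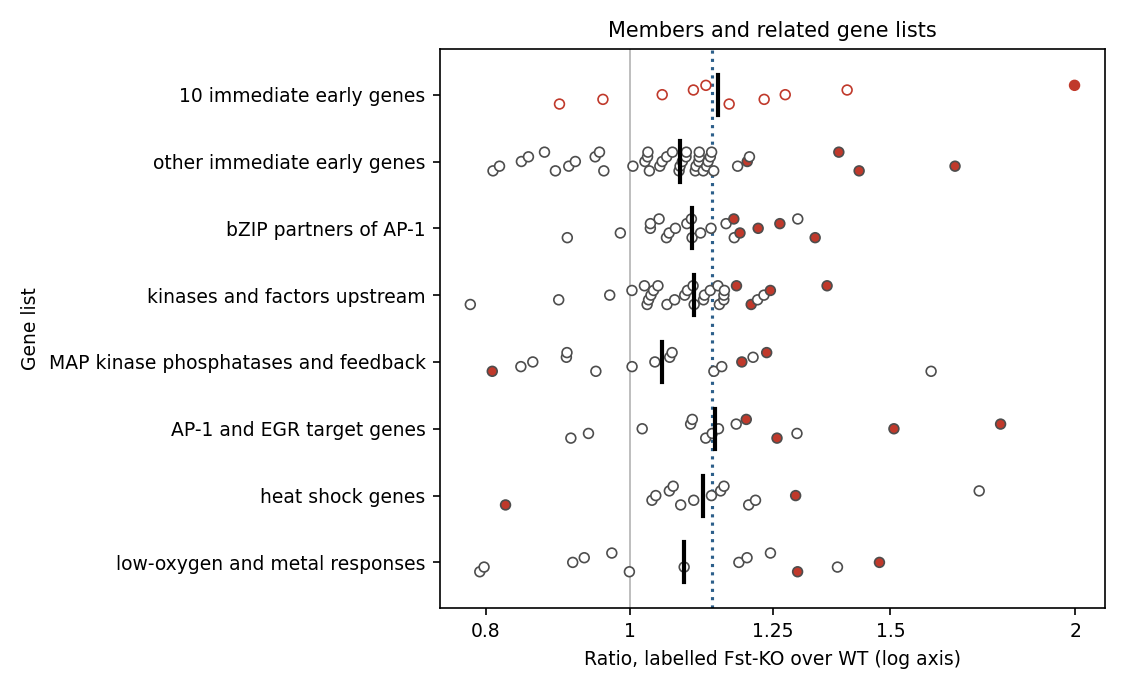
Ratio of each gene, libraries labelled Fst-KO over WT (log axis), for the immediate early genes and 7 related lists. Filled points have a nominal p under 0.05, black bars are list medians, the grey line is 1 and the dotted line the all-gene median, 1.14. List medians lie between 1.05 and 1.15, and no gene shown passed the FDR of 0.05.

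Other responses that dissection can call up were looked at beside the members. All 14 listed heat shock genes are in the table, with a median ratio of 1.12. A nominal p under 0.05 was reached by 14.3% of them and 15.6% of all genes, 13.4% higher and 2.17% lower. Dnaja1, a co-chaperone of Hsp70, stood at 1.29 and Hspb1, the small heat shock protein of muscle and epithelium, at 0.825 in the authors' deposited table, and only these 2 had a nominal p under 0.05. The stress-inducible Hsp70 genes Hspa1a and Hspa1b, near-identical copies between which reads cannot be placed with certainty, stood at 1.14 and 1.16 in the authors' deposited table. Low-oxygen and metal response genes had a median of 1.09 over 13 of 14. At that p were 15.4% of them, 2 higher and 0 lower. These were the metallothionein Mt2 at 1.47 and Ddit4, an mTORC1 inhibitor induced by stress, at 1.30 in the authors' deposited table. Hspa1a and Hspa1b were chosen after their values were seen.

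Markers of the cells that a tongue dissection can hold had medians farther from the all-gene median than the members had. Keratinised epithelium had a median ratio of 0.426 over 12 genes, 7 of them lower at a nominal p under 0.05, and sums of 633 in the libraries labelled Fst-KO against 1441 in WT. Skeletal muscle had a median of 0.689, with 4 of 12 lower at that p. Basal epithelium and mesenchyme had medians of 1.28 and 1.32, each with 5 of 10 higher. Leukocyte markers had a median of 1.44 over 8 of 10 genes, 5 of them higher, with Aif1 and Tyrobp not in the table, and their means summed to 63.4 and 43.5. Red blood cell markers, led by globins, had a median of 1.76 over 5 of 8, 3 of them higher, and their means summed to 670 and 368. For nerve and Schwann cells the median was 1.46 over 10 genes, with 3 higher and sums of 172 and 155. Endothelium stood at 1.00, with 0 of 10 at that p. Of all genes, 13.4% were higher and 2.17% lower at that p. Every marker in the table has a mean above 0 in both groups, and no marker passed the FDR. Which of these cell types held the members' RNA was not measured. The part of these markers in the members' values was not tested, and in bulk RNA a change in the share of a cell type and a change in RNA per cell cannot be told apart.

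**Figure D4:**
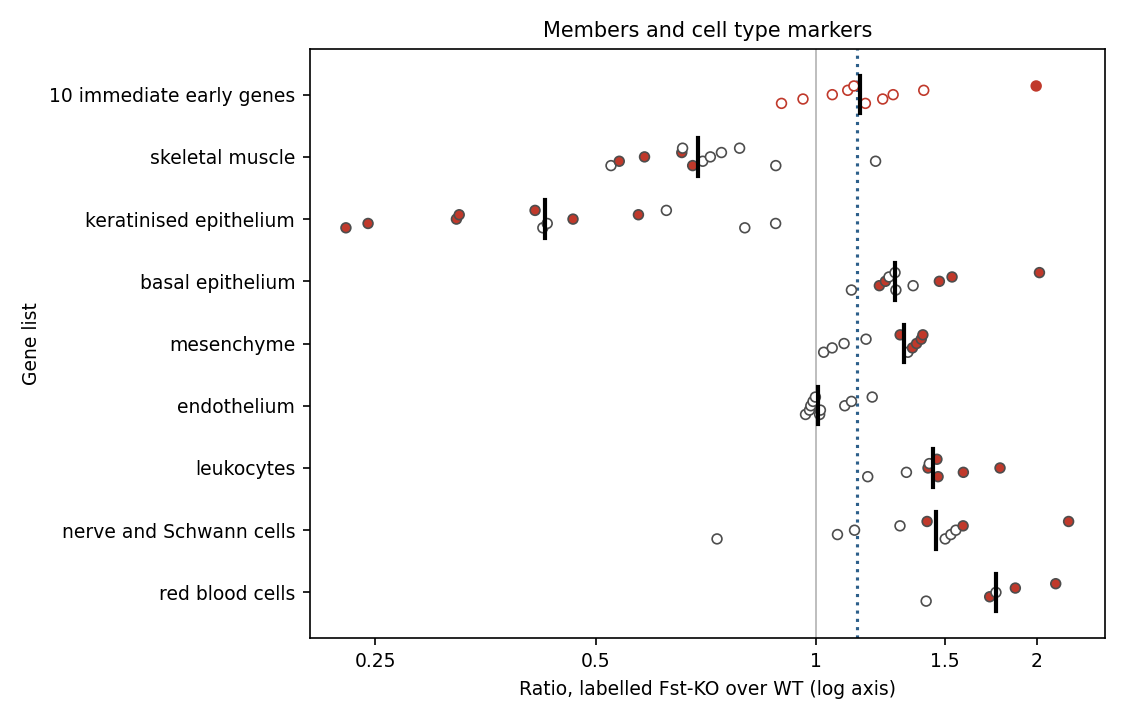
Ratio of each gene, libraries labelled Fst-KO over WT (log axis), for the immediate early genes and 8 lists of cell type markers. Filled points have a nominal p under 0.05, black bars are list medians, the grey line is 1 and the dotted line the all-gene median. The members, with a median of 1.15, lie between the lower keratinised epithelium (0.426) and skeletal muscle (0.689) and the higher red blood cell markers (1.76).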

How the data were processed

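RNA from 6 libraries, 3 WT and 3 labelled Fst-KO, was compared. Per the labels' protocols, tissue was homogenised in TRIzol, RNA came from RNeasy columns, and RNA integrity numbers were above 7. BWA 0.7.12 and Partek were used on mm10, per the submitters' processing notes. Per the series' design text, differences were tested with GSA. Annotation, normalisation and counting are not stated in the labels. BWA has no model of introns, and how reads over exon junctions were handled is not stated.

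The deposited table holds, per the file headers, a mean normalised signal per group, their ratio, a p-value and an FDR. The ratio equalled the quotient of the means, and the FDR a Benjamini-Hochberg adjustment, for all 15648 genes (relative tolerance 1e-06). The deposited column headed total counts holds normalised signal by its values: for each gene it was 3 times both means summed. Each mean is thus a plain mean over 3 libraries, which 1 library can move. The test fixed for the table was the deposited FDR under 0.05. No value per library exists in it, so no interval, exact test (smallest possible p 0.1) or likeness of pattern between genes was computed.

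Computed here were medians, counts and ranks, with Python 3.11.15, pandas 2.3.3 and NumPy 2.4.6, and the re-adjustment was tested on simulated data. The members and lists were chosen with earlier results of these data known. Named from each related list were up to 4 genes whose nominal p was under 0.05, by size of difference, or the 2 with the highest means where fewer than 2 had one. A gene that this rule would name is not reported here. Of the listed genes, Cyr61, Ctgf, Mkl1 and Mkl2 were matched by these older symbols. Positions and promoters are RefSeq's on GRCm38.p6, the assembly of mm10. Promoters of 8 members were matched by symbol, and those of Egr1 and Ier2 were not used here. Exon numbers and overlaps are from GENCODE M21. The alternatives were centring on the median of all genes, scaling to equal sums (without the 156 most abundant genes, or, added later, over all genes), pseudocounts of 1 and 10, other thresholds (FDR 0.1, p 0.01) and a filter on low means.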

Additional observations from a re-analysis of the deposited data

How the results depend on the processing

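No paired analysis was possible because the table has no value per library, and for the same reason no replicate was left out in turn. No member passed the FDR under any threshold run: 0 at 0.05, 0 at 0.10 and 0 when the adjustment was repeated on the 7824 more abundant genes, where all genes gave 15, 28 and 4. At a nominal p under 0.01 the count of members went from 1 to 0. Pseudocounts cannot turn a ratio, so they bear on its size alone. Centring on the all-gene median lowers every log2 ratio alike and so places by construction the genes between 1 and that median below it: Fosl2 (-0.11), Jun (-0.041) and Junb (-0.013), and the medians of the other immediate early genes (-0.072), bZIP partners (-0.044), upstream factors (-0.040), MAP kinase feedback (-0.11), heat shock genes (-0.020) and low-oxygen genes (-0.061). Scaling shifts all genes alike too. With sums equalised after leaving out the top 156 genes by mean, the all-gene median was 1.04, Fosl2 was the 1 member that turned (-0.052), and the medians of the other immediate early genes (-0.013), MAP kinase feedback (-0.052) and low-oxygen genes (-0.0026) turned. With the sums of all genes made equal, an alternative chosen after seeing the data, the all-gene median was 1.07, and Fosl2 (-0.016) and MAP kinase feedback (-0.016) turned. The count of members whose p exceeded that of over 90% of abundant genes with a like ratio, 6, went to 3 with a window of 0.1 and to 1 against all genes, and was 6 against the 10% most abundant genes, all chosen after seeing the data. The share of all abundant genes past that 90% was not counted. Depth is unknown, so what it limits could not be stated.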
